A study of Mus musculus with 14 samples.

Results

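The 32 genes described here copy the genome or carry out mitosis, and in tissue their transcripts mark dividing cells. They form 11 replication genes (Cdc45, Mcm2, Mcm3, Mcm4, Mcm5, Mcm6, Mcm7, Pcna, Rrm2, Tyms and Tk1) and 21 mitosis genes (Mki67, Top2a, Ccna2, Ccnb1, Ccnb2, Cdk1, Bub1, Bub1b, Aurka, Aurkb, Plk1, Birc5, Cdc20, Cenpe, Cenpf, Kif11, Kif20a, Kif23, Ube2c, Nusap1 and Prc1). They were chosen by symbol as known proliferation genes, with earlier results of these data at hand. All 32 were found, by Ensembl identifier, among the 35275 genes of the deposited table. RNA came from brown adipose tissue of 14 C57BL/6 mice aged 8 weeks, whose genotype carried LrpprcFF throughout. The controls were LrpprcFF without Cre (4 mice at room temperature, 22 °C, and 3 at thermoneutrality, 30 °C), and the knockouts were LrpprcFF with Ucp1-Cre (4 mice at 22 °C and 3 at 30 °C). LRPPRC is a mitochondrial protein that keeps mitochondrial messenger RNAs stable, and Ucp1-Cre acts in cells that express Ucp1, the brown adipocytes, so that other cells of the tissue keep the gene. Brown adipocytes are given as the cell type, but the protocol homogenized whole tissue, and markers of macrophages, fibroblasts and muscle were present in the libraries.

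A cell that commits to division first licenses its origins of replication by loading the MCM helicase, and Cdc45 then joins that helicase to open the DNA. PCNA is the sliding clamp that holds the polymerases, and ribonucleotide reductase, thymidylate synthase and thymidine kinase supply nucleotides. The mitosis genes follow later in the cycle: cyclins A and B with CDK1 start mitosis, the Aurora and Polo kinases build the spindle, BUB proteins monitor the attachment of chromosomes, and the anaphase-promoting complex, with Cdc20 and Ube2c, ends it. Mature brown adipocytes are post-mitotic, and dividing cells in this tissue are known among its progenitors, endothelial cells and macrophages.

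Values are FPKM (fragment counts divided by transcript length and by library depth) after rescaling each library on its nuclear genes, and are called scaled FPKM below. Lrpprc stood at 42.3 ± 14.4 (SD, n = 4) in the controls and 10.4 ± 1.07 (SD, n = 4) in the knockouts at 22 °C, and at 31.6 ± 1.22 (SD, n = 3) and 6.98 ± 1.83 (SD, n = 3) at 30 °C, so every library matched its genotype label. The animals at 22 °C had Ddx3y, a Y-linked gene, at 16.3 to 23.9 and Xist at 0.0139 or less. Those at 30 °C had Ddx3y at 0.0242 or less and Xist at 9.70 to 15.3. Temperature and the sex-linked pattern therefore cannot be told apart in any comparison between 22 and 30 °C, whereas each comparison of genotypes lies within 1 temperature. Depth was 15.9 to 21.3 M fragments (M for mega), and mitochondrial transcripts made up 21.8 to 28.5% of FPKM in the controls and 2.04 to 5.34% in the knockouts.

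Promoters of the genes on which the results turn are shown first, since the replication and mitosis genes are known to be switched on by partly different promoter elements. Sequences are those of RefSeq (GRCm38.p6), from 200 bases before the annotated start of transcription to 30 bases from the start on. Capitals mark CCAAT boxes (CCAAT, or ATTGG on the other strand), cell cycle homology regions (TTTGAA or TTCGAA, with TTCAAA on the other strand) and E2F motifs (TTTCCCGC, TTTGGCGC, TTTCGCGC or TTTGCCGC, either strand). Mcm5 (chr8:75109309-75109538 on the plus strand) stands for the helicase genes, and its capitals at the 5′ end are an E2F match on each strand that overlap by 4 bases. Pcna (chr2:132253151-132253380 on the minus strand) and Cdc20 (chr4:118437314-118437543 on the minus strand) are the replication and the mitosis gene with the clearest knockout difference beside Mcm5. Tk1 (chr11:117825985-117826214 on the minus strand) is a called gene with none of these letters in its window, and Cdc45 (chr16:18811943-18812172 on the minus strand) is the member that moved against the others with temperature.
Mcm5: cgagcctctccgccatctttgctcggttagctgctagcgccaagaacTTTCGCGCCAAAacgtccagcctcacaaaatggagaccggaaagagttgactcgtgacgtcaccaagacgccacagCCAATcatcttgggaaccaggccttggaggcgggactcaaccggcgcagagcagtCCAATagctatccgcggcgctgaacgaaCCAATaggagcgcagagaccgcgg
Pcna: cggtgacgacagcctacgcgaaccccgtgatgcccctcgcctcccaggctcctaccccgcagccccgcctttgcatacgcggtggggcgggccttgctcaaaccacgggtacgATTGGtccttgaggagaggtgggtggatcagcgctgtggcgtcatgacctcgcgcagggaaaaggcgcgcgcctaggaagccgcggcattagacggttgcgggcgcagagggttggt
Tk1: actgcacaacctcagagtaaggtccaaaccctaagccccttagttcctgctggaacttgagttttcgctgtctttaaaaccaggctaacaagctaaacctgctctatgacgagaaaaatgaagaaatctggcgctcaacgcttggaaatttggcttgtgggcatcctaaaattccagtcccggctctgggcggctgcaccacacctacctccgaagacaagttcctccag
Cdc20: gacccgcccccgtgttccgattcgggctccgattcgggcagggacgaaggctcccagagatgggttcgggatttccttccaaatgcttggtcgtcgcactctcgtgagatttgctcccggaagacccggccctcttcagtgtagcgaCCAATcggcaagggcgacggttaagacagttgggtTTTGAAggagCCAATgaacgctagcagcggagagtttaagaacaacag
Cdc45: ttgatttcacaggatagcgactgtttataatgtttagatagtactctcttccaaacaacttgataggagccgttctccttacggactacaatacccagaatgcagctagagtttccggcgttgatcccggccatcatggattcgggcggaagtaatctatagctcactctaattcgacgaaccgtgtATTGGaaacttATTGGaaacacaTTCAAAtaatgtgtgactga
RefSeq windows of 300 bases (250 before the start and 50 from it on) were found for 28 of the 32 members, in 30 windows; Mcm4, Ccna2, Aurkb and Kif20a had no entry. A CCAAT box was in 81.8% of the 11 replication windows and 89.5% of the 19 mitosis windows, against 37.4% of all 32851 promoter windows. The cell cycle homology region, bound by repressors that keep mitosis genes silent in resting cells, differed between the sets: 15 of 19 mitosis windows (78.9%) and 3 of 11 replication windows (27.3%) held it, against 19.2% of all. E2F letters were in 4 of 11 replication windows (36.4%; Mcm3, Mcm5, Mcm6 and Mcm7), in 1 of 19 mitosis windows (5.26%; Cdk1) and in 2.26% of all. Both a CCAAT box and a cell cycle homology region lay in the promoters of 14 of the 18 mitosis genes with an entry, among them Cdc20, Plk1, Top2a and Ube2c. With only the 250 bases before the start, the mitosis windows with the homology region numbered 9. Tk1, Tyms, Birc5 and Nusap1 had none of the letters in their windows.

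**Figure D1:**
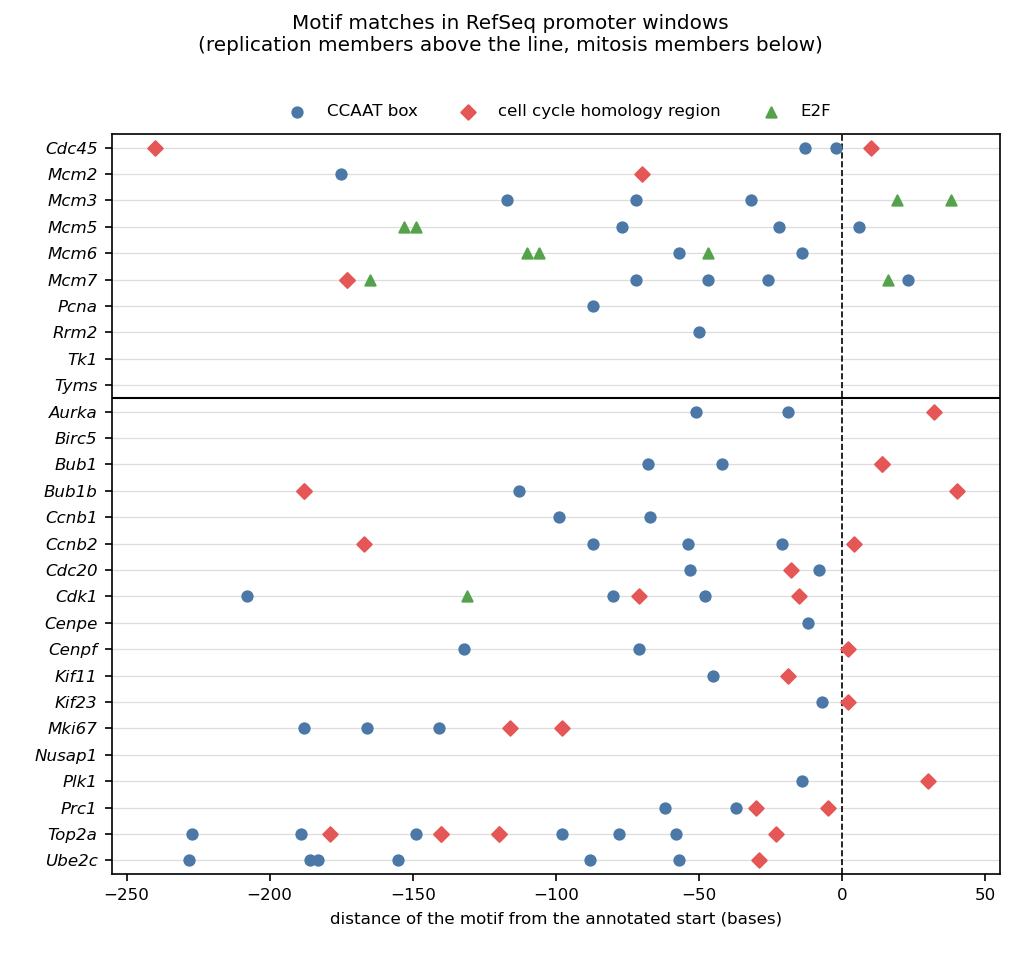
Position of each motif match (horizontal axis, bases from the annotated start, which is the dashed line) in the RefSeq promoter windows of 28 members (rows), with CCAAT boxes as circles, cell cycle homology regions as diamonds and E2F matches as triangles. Diamonds fall in 14 of 18 mitosis rows and 3 of 10 replication rows.

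Over the 4 groups, the members followed 1 order for the most part: lowest in the controls at 22 °C, then the knockouts at 22 °C, then the controls at 30 °C, and highest in the knockouts at 30 °C. All 4 means stood in that order for 8 of 11 replication and 19 of 21 mitosis genes. The mean was highest in the knockouts at 30 °C for 9 of 11 replication genes and 21 of 21 mitosis genes, and lowest in the controls at 22 °C for 9 and 19 of them. No share over all genes was worked out for these counts of order, which are description only. Summed over the 6 helicase genes, scaled FPKM averaged 13.2 ± 2.32, 16.5 ± 1.97, 22.7 ± 0.469 and 33.3 ± 5.5 in that order (SD, n = 4, 4, 3 and 3). Summed over the 21 mitosis genes it averaged 7.07 ± 1.48, 10.4 ± 3.02, 17.6 ± 6.00 and 33.2 ± 11.3. The 2 genotypes at 22 °C overlapped in both sums, as did the genotypes at 30 °C in the mitosis sum. Because RNA came from whole tissue, more dividing cells and more of these transcripts per cell cannot be told apart.

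**Figure D2:**
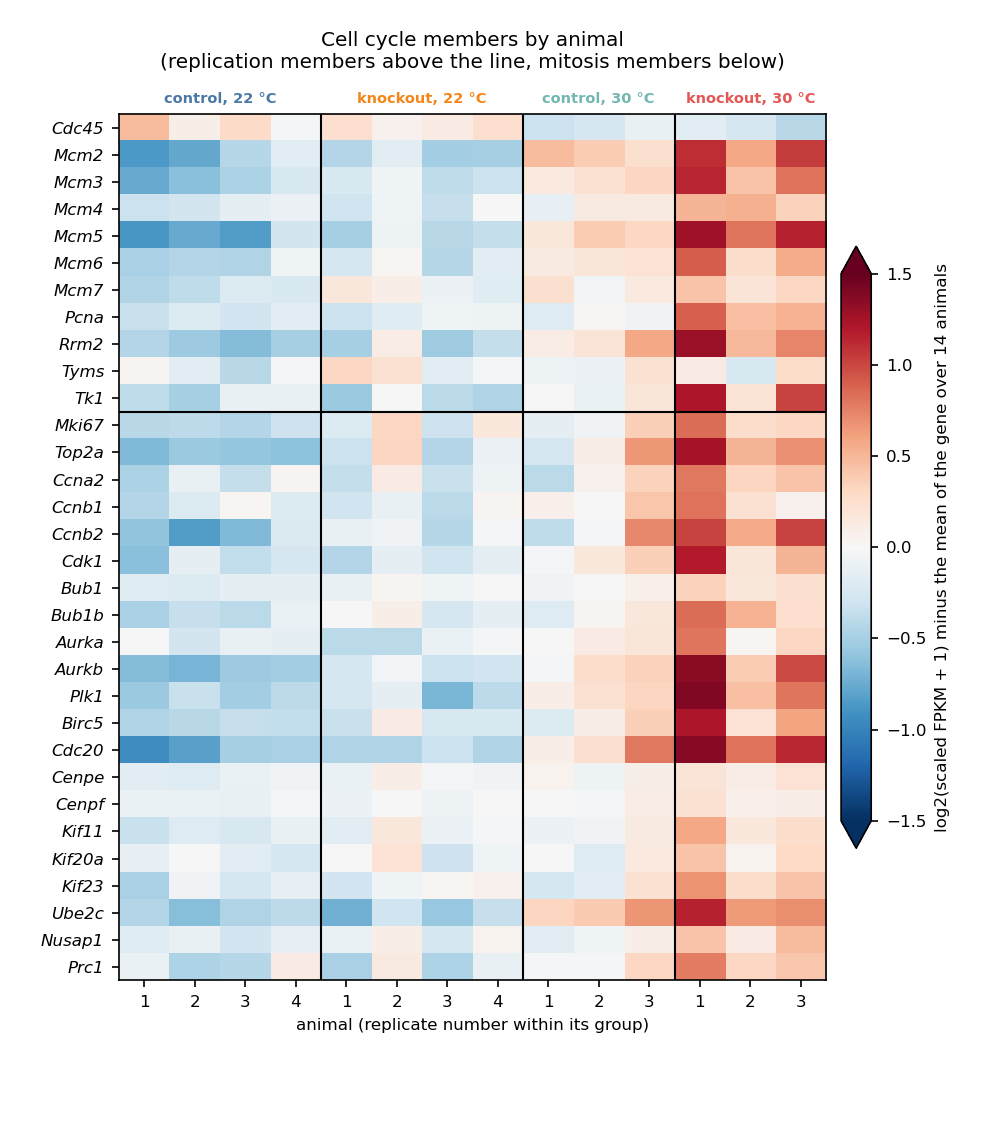
Each row is a member and each column an animal (replicate number within its group); colour is log2(scaled FPKM + 1) minus that gene's mean over the 14 animals. The 3 knockouts at 30 °C are the reddest columns, with replicate 1 the highest for 27 of 32 members, and Cdc45 in the top row runs the other way.

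Replication against mitosis genes were compared by a score for each list, the mean of log2(scaled FPKM + 1) over its genes. In the controls at 22 °C the replication score was 1.68, 1.67, 1.74 and 1.91 and the mitosis score 0.312, 0.377, 0.380 and 0.491. In the knockouts at 22 °C the values were 1.87, 2.08, 1.79 and 1.88 for replication and 0.452, 0.714, 0.428 and 0.613 for mitosis. At 30 °C the controls had 2.13, 2.18 and 2.28 for replication and 0.638, 0.761 and 1.04 for mitosis, and the knockouts 2.88, 2.40 and 2.66 for replication and 1.55, 1.02 and 1.20 for mitosis. Both scores moved by nearly the same amount in each comparison, so that replication minus mitosis kept within 1.24 to 1.5 in the 14 animals. The knockouts exceeded the controls by 0.155 (replication) and 0.162 (mitosis) at 22 °C and by 0.447 and 0.445 at 30 °C. Only the replication score at 30 °C kept the genotypes apart: in the mitosis score the control with 1.04 lay above the knockout with 1.02. This likeness depends on the scale, because mitosis genes sit at low levels where adding 1 shrinks a change. With 0.1 added in place of 1, the mitosis difference grew to 0.530 at 22 °C and 0.824 at 30 °C. As ratios of group means, knockout over control had a median of 1.19 for the replication and 1.52 for the mitosis genes at 22 °C and of 1.63 and 1.94 at 30 °C, with 0.994 and 1.05 over all genes that passed the filter on low values.

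**Figure D3:**
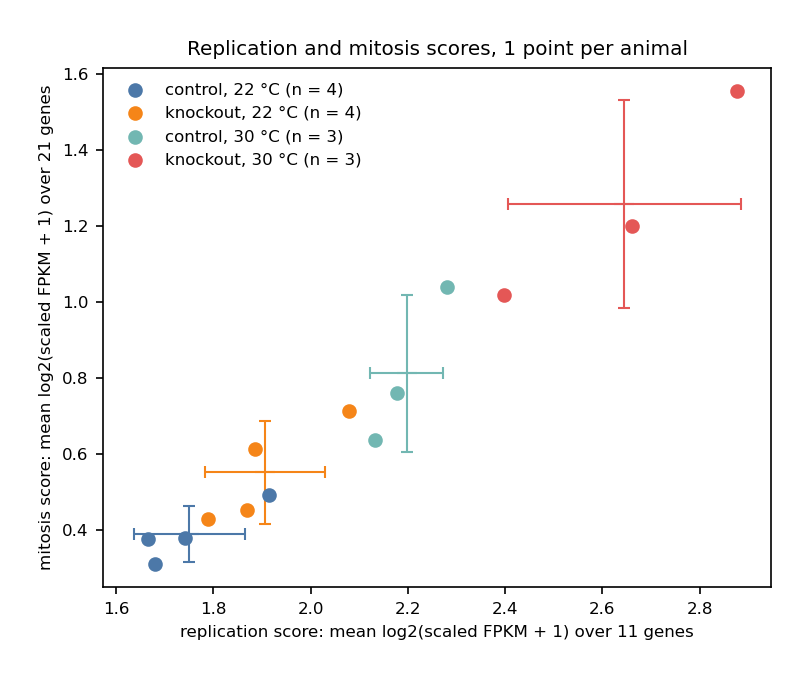
Replication score (horizontal) against mitosis score (vertical), both as mean log2(scaled FPKM + 1), with 1 point per animal and a cross at each group's mean ± SD. Points ascend from the controls at 22 °C, lower left, to the knockouts at 30 °C, upper right, with 1 control at 30 °C (1.04) above 1 knockout (1.02) on the mitosis axis.

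The knockout at 30 °C showed the larger set of calls. By limma, 6 members were higher in the knockouts at an adjusted p under 0.05 (Pcna, Mcm5, Tk1, Cdc20, Aurkb and Plk1) and none was lower. They were 6 of the 23 members that passed the filter (FPKM no lower than 1 in 3 or more of the 14 libraries), where 14.1% of the 13079 genes tested were called, 8.82% as higher. Aurkb and Plk1 would not have passed this filter without the knockouts at 30 °C, the group in which they were highest. Fitted with no filter, 31 of all 32 members had a higher estimate, with a median log2 change of 0.44 against 0.015 over all genes. In that limma fit 5 were called (Pcna, Bub1, Mcm5, Cdc20 and Aurkb), where 1029 of 24190 genes were called higher. Tk1 (adjusted p = 0.0718) and Plk1 (adjusted p = 0.0696) were not called in it. The groups did not overlap, with every knockout above every control, for 17 of the 32 members, where 15% of genes did so. These were Mcm2, Mcm3, Mcm4, Mcm5, Mcm6, Pcna and Tk1 among the replication genes and Bub1, Bub1b, Aurkb, Plk1, Cdc20, Cenpe, Kif11, Kif23, Nusap1 and Prc1 among the mitosis genes. In the same animals 12 macrophage markers summed to 141 to 481 scaled FPKM in the controls and 749 to 2300 in the knockouts, and their part in these differences was not tested.

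Pcna (ENSMUSG00000027342), the clamp, was the most abundant member and read 22.3, 24.7, 23.1 and 25.3 in the controls at 22 °C, 22.7, 24.96, 27.2 and 27.1 in the knockouts at 22 °C, 24.7, 29.02 and 27.3 in the controls at 30 °C and 53.7, 39.2 and 41.4 in the knockouts at 30 °C. Only the knockouts at 30 °C left the common range of 22.3 to 29.0, and the log2 difference there was 0.70 (SE 0.12, adjusted p = 0.00364). Mcm5 (ENSMUSG00000005410), a helicase subunit, read 0.555, 0.687, 0.597 and 1.37 in the controls at 22 °C, 1.03, 1.72, 1.15 and 1.23 in the knockouts at 22 °C, 2.21, 2.73 and 2.54 in the controls at 30 °C and 5.92, 3.997 and 5.35 in the knockouts at 30 °C. All 3 knockouts at 30 °C stood above every other animal, by 0.79 (SE 0.18, adjusted p = 0.0117) against their controls. The other helicase genes had estimates from 0.20 (Mcm7) to 0.56 (Mcm3) and were not called; Mcm3 and Mcm4 came closest, with adjusted p of 0.0507 and 0.0505. Tk1 (ENSMUSG00000025574), which salvages thymidine, read 1.62, 1.42, 2.15 and 2.15 in the controls at 22 °C, 1.33, 2.42, 1.58 and 1.5 in the knockouts at 22 °C, 2.44, 2.2 and 2.87 in the controls at 30 °C and 6.93, 2.95 and 5.9 in the knockouts at 30 °C. Knockout replicates 1 and 3 at 30 °C carried the difference of 0.78 (SE 0.23, adjusted p = 0.0372), and replicate 2 lay just above the highest control.

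Among the mitosis genes, Cdc20 (ENSMUSG00000006398), the activator of the anaphase-promoting complex, read 0.0992, 0.207, 0.493 and 0.515 in the controls at 22 °C, 0.544, 0.547, 0.697 and 0.542 in the knockouts at 22 °C, 1.24, 1.5 and 2.66 in the controls at 30 °C and 4.44, 2.72 and 3.65 in the knockouts at 30 °C. The genotypes at 30 °C were separate by a narrow margin (2.66 against 2.72), with a log2 difference of 0.73 (SE 0.20, adjusted p = 0.0268). Aurkb (ENSMUSG00000020897), the kinase of the chromosomal passenger complex, read 0.0608, 0.0317, 0.142 and 0.158 in the controls at 22 °C, 0.4, 0.622, 0.336 and 0.367 in the knockouts at 22 °C, 0.629, 1.003 and 1.12 in the controls at 30 °C and 3.26, 1.17 and 2.31 in the knockouts at 30 °C. Its 4 groups did not overlap and ascended in the order given, although the lowest knockout at 30 °C lay just above the highest control, and the difference at 30 °C was 0.72 (SE 0.20, adjusted p = 0.0336). Plk1 (ENSMUSG00000030867), the Polo kinase, read 0.242, 0.449, 0.276 and 0.391 in the controls at 22 °C, 0.531, 0.657, 0.135 and 0.395 in the knockouts at 22 °C, 0.961, 1.14 and 1.28 in the controls at 30 °C and 3.78, 1.51 and 2.2 in the knockouts at 30 °C. Knockout replicate 1 was the highest by far, and the difference at 30 °C was 0.67 (SE 0.21, adjusted p = 0.0471).

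The calls at 30 °C were unevenly secured. Pcna was called in each of the 6 fits that left out 1 animal, and Mcm5 in 5 of them, whereas Tk1 and Plk1 were each lost in 5 and Aurkb and Cdc20 in 4. The number called was 1 (Pcna) without knockout replicate 1, 12 without knockout replicate 2 and 3 without knockout replicate 3. It was 2 (Pcna and Mcm5) without control replicate 1 or control replicate 2, and 7 without control replicate 3. Voom on fragment counts recovered from the FPKM values called 6, namely Pcna, Mcm5, Mcm4, Cdc20, Bub1b and Mcm3. With no filter on FPKM, a setting chosen after seeing the data, voom called 2, Pcna and Mcm5. Control replicates 3 and 4 at 22 °C carry an identifier with the letter R where the other 12 animals have E, and the fit without them called 9 at 30 °C. With FPKM as deposited, limma called 20, where the median of all genes also moved, by 0.31 on the log2 scale.

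**Figure D4:**
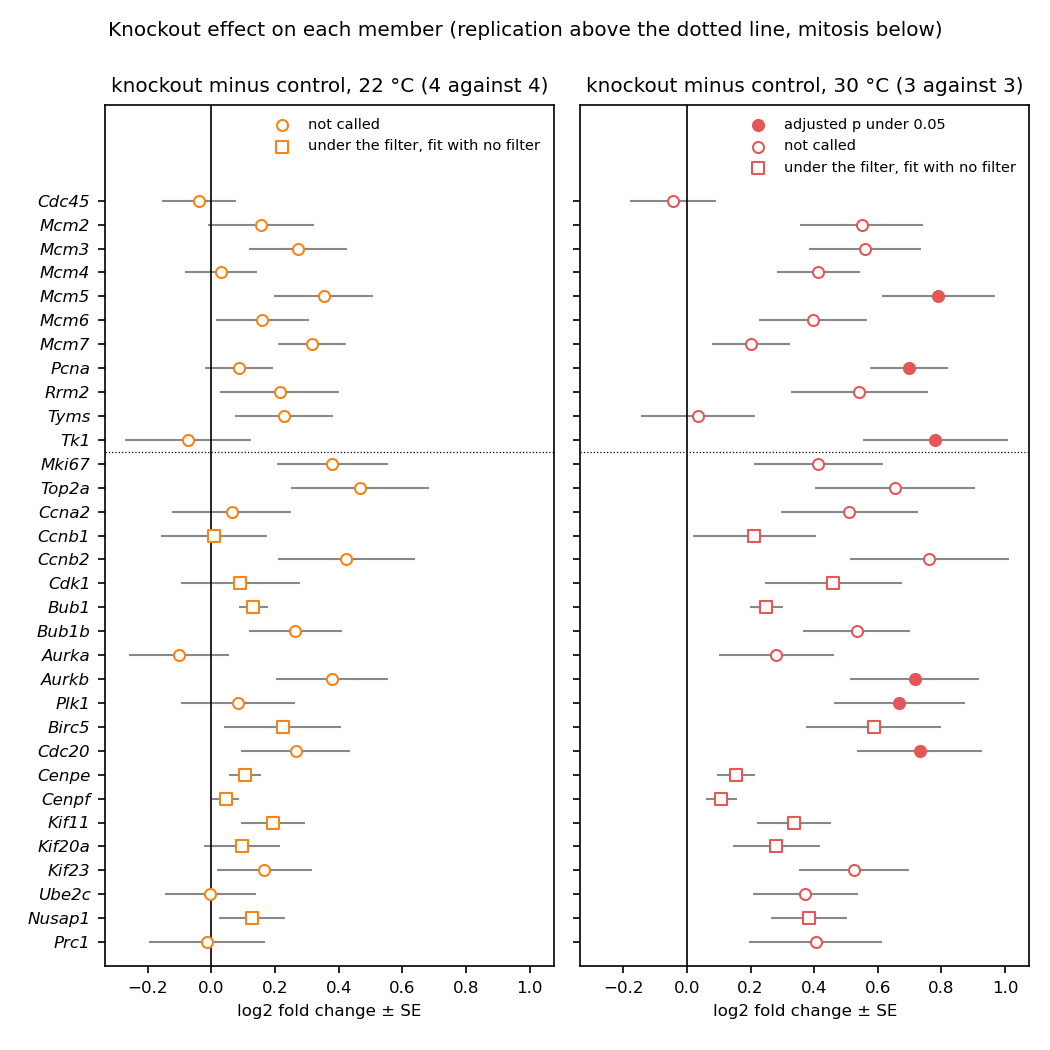
Log2 fold change of each member (knockout minus control, horizontal axis) with its SE at 22 °C (left) and 30 °C (right). Filled circles have an adjusted p under 0.05, open circles do not, and squares are members under the filter, from a fit with no filter. At 30 °C, 31 of 32 points lie right of 0, and 6 are filled.

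At 22 °C no member was called in limma, where 1.97% of all genes were called, and none by voom. An unadjusted p under 0.05 in limma was found for 5 of the 23 members tested and for 2060 of the 13079 genes tested. With no filter, 27 of the 32 estimates were higher in the knockouts, with a median log2 change of 0.14 against 0.00 over all genes. The genotypes did not overlap for 7 members, all higher in the knockouts (Mcm7, Mki67, Top2a, Bub1, Aurkb, Birc5 and Cdc20), where 3.01% of genes did so. Mcm7, a helicase subunit, read 5.47, 5.8, 6.69 and 6.57 in the controls at 22 °C, 8.94, 8.52, 7.31 and 6.82 in the knockouts at 22 °C, 9.45, 7.64 and 8.78 in the controls at 30 °C and 10.9, 9.18 and 10.03 in the knockouts at 30 °C. Its estimate at 22 °C was 0.32 (SE 0.11, adjusted p = 0.154). Top2a, the topoisomerase that untangles chromosomes, read 0.182, 0.272, 0.254 and 0.224 in the controls and 0.495, 1.34, 0.376 and 0.754 in the knockouts at 22 °C, an estimate of 0.47 (SE 0.22, adjusted p = 0.317). Mki67, which coats mitotic chromosomes and is the usual marker of proliferation, read 0.224, 0.245, 0.203 and 0.318 in the controls and 0.416, 1.03, 0.319 and 0.827 in the knockouts there, an estimate of 0.38 (SE 0.17, adjusted p = 0.313). In both genes knockout replicates 2 and 4 were the high animals. Bub1, the checkpoint kinase, stayed at 0.191 or less in the 8 animals at 22 °C, with 7 fragments in all behind the 4 controls and 35 behind the 4 knockouts.

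The knockout effects at the 2 temperatures were then compared directly. The estimate was larger at 30 °C than at 22 °C by 0.61 (SE 0.16, adjusted p = 0.201) for Pcna and by 0.85 (SE 0.30, adjusted p = 0.266) for Tk1. For Mcm5 the excess was 0.44 (SE 0.24, adjusted p = 0.467) and for Aurkb 0.34 (SE 0.27, adjusted p = 0.644). No member passed, and 0.0% of all genes did, with 1694 genes and 3 members at an unadjusted p under 0.05 in limma, and 0 members called by voom. Tk1 alone was called without knockout replicate 2 at 30 °C. A difference between the temperatures in the knockout effect was thus not shown for these genes, nor that the effects were alike: the SEs were 0.16 to 0.33 on the log2 scale over the members tested.

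Each group enters a genotype and a temperature comparison, so that these share animals. Between temperatures, the controls at 22 °C were lower than those at 30 °C for 12 of the 23 members that passed the filter, and 1, Cdc45, was higher. Over all genes tested, 38.8% were called in this comparison, 20.6% as lower at 22 °C. Fitted with no filter, 31 of 32 estimates were lower, with a median of -0.35 on the log2 scale. Every control at 22 °C lay below every control at 30 °C for 17 of 32 members, against 16.6% of genes. The macrophage markers summed to 68.8 to 103 at 22 °C and 141 to 481 at 30 °C in the same controls, and their part was not tested. As ratios of means the mitosis genes were a median of 2.91-fold lower and the replication genes 1.41-fold lower, against 1.04-fold over all genes that passed the filter. Of the 6 helicase genes 5 were called, with Mcm5 at -0.97 (SE 0.17, adjusted p = 0.00121) and Mcm2 at -0.92 (SE 0.18, adjusted p = 0.00236), and Mcm4 at -0.26 (SE 0.12, adjusted p = 0.11) was not.

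Mcm2, a helicase subunit, read 0.792, 0.917, 1.43 and 1.92 in the controls at 22 °C, 1.42, 1.92, 1.29 and 1.32 in the knockouts at 22 °C, 3.54, 3.25 and 2.85 in the controls at 30 °C and 6.06, 3.87 and 5.78 in the knockouts at 30 °C. Mcm3 read 1.12, 1.33, 1.58 and 2.08 in the controls at 22 °C, 2.08, 2.43, 1.75 and 1.88 in the knockouts at 22 °C, 2.99, 3.21 and 3.51 in the controls at 30 °C and 6.92, 3.85 and 5.31 in the knockouts at 30 °C. Mcm6 read 1.28, 1.35, 1.33 and 2.06 in the controls at 22 °C, 1.69, 2.25, 1.38 and 1.87 in the knockouts at 22 °C, 2.52, 2.62 and 2.71 in the controls at 30 °C and 4.98, 2.85 and 3.68 in the knockouts at 30 °C. In these 3 the animals at 30 °C lay above all those at 22 °C in either genotype. Mcm4 read 1.72, 1.81, 2.11 and 2.21 in the controls at 22 °C, 1.77, 2.25, 1.69 and 2.42 in the knockouts at 22 °C, 2.13, 2.76 and 2.74 in the controls at 30 °C and 3.86, 3.94 and 3.32 in the knockouts at 30 °C, and here only the knockouts at 30 °C stood apart. Rrm2, the regulated subunit of ribonucleotide reductase, read 0.703, 0.592, 0.478 and 0.646 in the controls at 22 °C, 0.645, 1.51, 0.597 and 0.816 in the knockouts at 22 °C, 1.5, 1.66 and 2.47 in the controls at 30 °C and 4.68, 2.24 and 2.85 in the knockouts at 30 °C, and the controls differed by -0.83 (SE 0.20, adjusted p = 0.00715). One knockout at 22 °C, replicate 2, lay within the range of the controls at 30 °C.

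Ube2c, the ubiquitin-conjugating enzyme of the anaphase-promoting complex, read 0.568, 0.367, 0.554 and 0.618 in the controls at 22 °C, 0.289, 0.724, 0.435 and 0.677 in the knockouts at 22 °C, 1.65, 1.79 and 2.36 in the controls at 30 °C and 3.73, 2.3 and 2.46 in the knockouts at 30 °C. It had the smallest adjusted p of the members in the controls, at -0.94 (SE 0.16, adjusted p = 0.00105), and the 2 temperatures were far apart in both genotypes. Cdc20, Aurkb and Plk1, whose values are given above, followed with log2 changes of -1.06, -0.80 and -0.67. Top2a read 0.566, 0.996 and 1.94 in the controls and 3.46, 1.67 and 2.01 in the knockouts at 30 °C, and differed between the controls by -0.76 (SE 0.23, adjusted p = 0.0216). Ccnb2, a B cyclin, read 0.231, 0.0401, 0.179 and 0.599 in the controls at 22 °C, 0.728, 0.787, 0.386 and 0.83 in the knockouts at 22 °C, 0.434, 0.834 and 2.05 in the controls at 30 °C and 2.76, 1.76 and 2.77 in the knockouts at 30 °C. Its controls overlapped between temperatures although it was called, at -0.68 (SE 0.23, adjusted p = 0.0338), and that call was lost in 5 of 7 fits that left out an animal.

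In the knockouts, 21 of 23 members were lower at 22 °C than at 30 °C and 1, Cdc45, was higher, where 51.1% of all genes were called and 29.4% as lower. Aurkb, Plk1, Top2a, Ccnb2, Ccna2, Kif23 and Mki67 would not have passed the filter without the knockouts at 30 °C, the group in which they were highest. The macrophage markers summed to 115 to 243 at 22 °C and 749 to 2300 at 30 °C in these knockouts, again not tested for their part. With no filter 28 of 32 members were called lower, with a median log2 change of -0.70 over the 32, where 4645 of 24190 genes were called lower. The groups did not overlap for 27 members lower at 22 °C, against 23.4% of genes. As ratios of means the mitosis genes were a median of 2.91-fold lower and the replication genes 2.14-fold lower in the knockouts. Over all genes that passed the filter the median was 1.06-fold lower. Mcm5 and Cdc20 had the largest changes among those that passed, at -1.41 (SE 0.17, adjusted p = 6.67e-05) and -1.52 (SE 0.18, adjusted p = 7.46e-05). The calls of Mki67 and Mcm7 were the least secure here, lost in 5 and 4 of 7 fits that left out an animal. Pcna, which differed by -0.17 (SE 0.11, adjusted p = 0.249) in the controls, differed by -0.78 (SE 0.11, adjusted p = 2.10e-04) in the knockouts. The 2 comparisons share no animals, and the test of their difference is the one given above for the knockout effect, which no member passed.

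Several mitosis genes were called between temperatures in the knockouts and not in the controls. Aurka, the spindle-pole Aurora kinase, read 1.28, 0.876, 1.1 and 1.07 in the controls at 22 °C, 0.717, 0.71, 1.12 and 1.24 in the knockouts at 22 °C, 1.26, 1.47 and 1.57 in the controls at 30 °C and 2.96, 1.31 and 1.81 in the knockouts at 30 °C. Prc1, which bundles the central spindle, read 0.879, 0.458, 0.5 and 1.2 in the controls at 22 °C, 0.442, 1.22, 0.457 and 0.87 in the knockouts at 22 °C, 0.994, 0.982 and 1.5 in the controls at 30 °C and 2.44, 1.5 and 1.66 in the knockouts at 30 °C. Bub1b, the checkpoint protein BUBR1, read 0.453, 0.607, 0.542 and 0.906 in the controls at 22 °C, 1.05, 1.17, 0.714 and 0.865 in the knockouts at 22 °C, 0.79, 1.1 and 1.3 in the controls at 30 °C and 2.65, 1.94 and 1.44 in the knockouts at 30 °C. Each was highest in knockout replicate 1 at 30 °C, with differences in the knockouts of -0.61, -0.73 and -0.61 on the log2 scale. Ccna2, cyclin A, read 0.16, 0.501, 0.261 and 0.665 in the controls at 22 °C, 0.263, 0.756, 0.281 and 0.535 in the knockouts at 22 °C, 0.226, 0.698 and 1.05 in the controls at 30 °C and 1.8, 1.02 and 1.18 in the knockouts at 30 °C. Kif23, the motor of the central spindle, read 0.156, 0.56, 0.339 and 0.486 in the controls at 22 °C, 0.328, 0.545, 0.643 and 0.687 in the knockouts at 22 °C, 0.342, 0.441 and 0.891 in the controls at 30 °C and 1.57, 0.945 and 1.18 in the knockouts at 30 °C. In both, the controls at 30 °C overlapped both groups at 22 °C, and the knockouts differed by -0.68 and -0.52.

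Cdc45 and Tyms, both replication genes, did not follow the rest. Cdc45 (ENSMUSG00000000028), the helicase partner whose promoter is shown above, read 5.51, 3.98, 4.72 and 3.62 in the controls at 22 °C, 4.58, 3.88, 4.08 and 4.56 in the knockouts at 22 °C, 2.73, 2.92 and 3.33 in the controls at 30 °C and 3.2, 2.92 and 2.51 in the knockouts at 30 °C. All 8 animals at 22 °C lay above all 6 at 30 °C, with 0.44 (SE 0.13, adjusted p = 0.0152) in the controls and 0.45 (SE 0.13, adjusted p = 0.00988) in the knockouts, and its genotypes overlapped at both temperatures. Cdc45 shares 209 bases on the opposite strand with Ufd1, a far more abundant gene, and whether the counting used strand is not given in the sources used here. Ufd1 itself read 35.9 to 45.9 at 22 °C and 25.8 to 33.5 at 30 °C; its part in the Cdc45 values was not tested. Tyms, thymidylate synthase, read 1.27, 0.971, 0.654 and 1.17 in the controls at 22 °C, 1.73, 1.59, 0.98 and 1.16 in the knockouts at 22 °C, 1.09, 1.08 and 1.6 in the controls at 30 °C and 1.41, 0.889 and 1.67 in the knockouts at 30 °C. Its groups overlapped in every comparison, with estimates from -0.16 to 0.23.

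The 9 members under the filter were all mitosis genes (Ccnb1, Cdk1, Bub1, Birc5, Cenpe, Cenpf, Kif11, Kif20a and Nusap1). Cdk1, the mitotic kinase, read 0, 0.407, 0.191 and 0.299 in the controls at 22 °C, 0.135, 0.404, 0.247 and 0.408 in the knockouts at 22 °C, 0.521, 0.717 and 0.977 in the controls at 30 °C and 2.51, 0.747 and 1.19 in the knockouts at 30 °C. Birc5, survivin, read 0.0712, 0.0927, 0.149 and 0.129 in the controls at 22 °C, 0.161, 0.588, 0.232 and 0.245 in the knockouts at 22 °C, 0.267, 0.57 and 0.863 in the controls at 30 °C and 2.37, 0.699 and 1.19 in the knockouts at 30 °C. The knockouts at 30 °C had the highest mean of each of the 9. The 21 mitosis genes together took 310 to 3499 fragments per library, which limits how small a change could be seen. Within groups the coefficient of variation had a median of 31.2 to 46.0% over the mitosis genes and of 10.6 to 22.8% over the replication genes.

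Other members overlap neighbours on the opposite strand in the GENCODE annotation. Ube2c overlaps Tnnc2, a muscle troponin, by 1662 bases. Tnnc2 was listed at 0.239 or less in all 14 libraries and 8 muscle markers summed to 69.9 to 12230; their part in the Ube2c values was not tested. Tk1 overlaps Gm20708, annotated as protein-coding, by 10567 bases and Afmid by 169, and Cdc20 overlaps Elovl1 by 53. Afmid read 1.04 or less in every library. Prc1 overlaps Rccd1 by 21810 bases, Ccna2 overlaps Exosc9 by 863, Mcm7 overlaps Ap4m1 by 421 and Kif20a overlaps Cdc23 by 2327. Values of these members carry that limit.

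Macrophage markers moved with the members. The summed scaled FPKM of 12 markers (Adgre1, Cd68, Csf1r, Mrc1, Cd163, Lyz2, C1qa, C1qb, C1qc, Itgam, Trem2 and Gpnmb) was 68.8 to 103 in the controls and 115 to 243 in the knockouts at 22 °C, and 141 to 481 and 749 to 2300 at 30 °C. At 30 °C 11 of the 12 were called higher in the knockouts, where 8.82% of all genes were, and at 22 °C none was. Against 30 °C, 7 were lower and 1 higher at 22 °C in the controls, and 11 lower and 1 (Cd163) higher in the knockouts. Over all genes 38.8% and 51.1% were called in these comparisons. Within each group the animal highest for most members was also the highest for the macrophage sum and for the sums of the dendritic cell and the fibroblast and progenitor markers. These were control replicate 4 (18 of 32 members) and knockout replicate 2 (20) at 22 °C, and control replicate 3 (27) and knockout replicate 1 (27) at 30 °C. Knockout replicate 2 at 30 °C was the lowest of its group in 28 of 32 members and in the same 3 marker sums. It was also the lowest in the T and NK cell, B and plasma cell, Schwann cell, skeletal muscle and erythroid sums, and the highest in the endothelial sum. Control replicate 4 at 22 °C was also the highest in the B and plasma cell, endothelial, mural and erythroid sums. The shared order was thus not particular to those 3 marker lists.

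**Figure D5:**
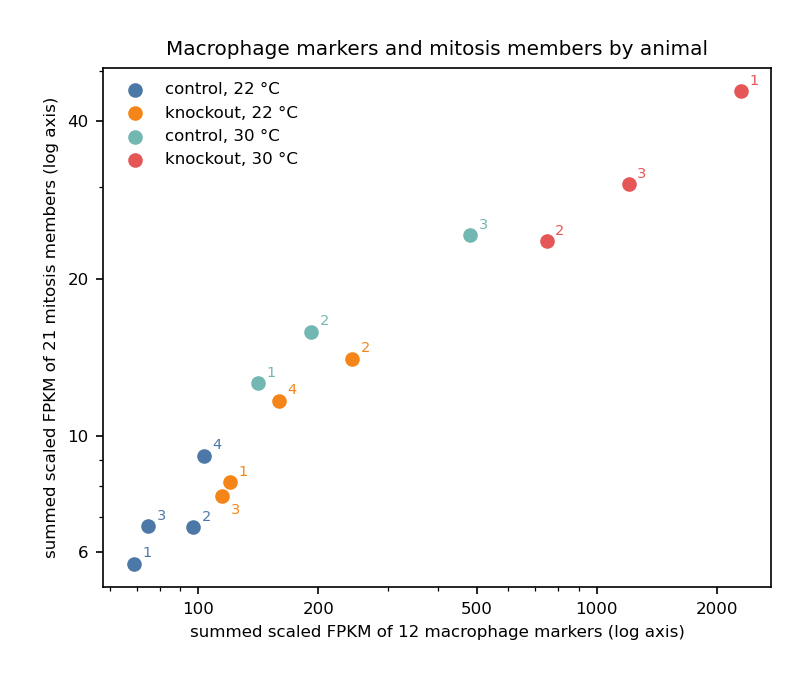
Summed scaled FPKM of the 12 macrophage markers (horizontal, log axis) against that of the 21 mitosis members (vertical, log axis), with 1 point per animal, numbered by replicate. Controls at 22 °C have mitosis sums of 5.69 to 9.16, and the knockouts at 30 °C have the highest macrophage sums, 749 to 2300.

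Fibroblast and progenitor markers (8 listed, 7 tested) summed to 230 to 268 in the controls and 422 to 821 in the knockouts at 30 °C. Of the 7 tested, 5 were called higher there, where 8.82% of all genes were called higher. In the knockouts 6 of the 7 were called lower at 22 °C than at 30 °C, where 29.4% of all genes were called lower. T and NK cell markers summed to 1.15 to 3.14 and 2.03 to 3.05 at 22 °C and 4.60 to 19.8 and 5.20 to 31.7 at 30 °C. Adipocyte markers ran the other way between genotypes at 30 °C, from 12220 to 15080 in the controls to 6774 to 8809 in the knockouts. Of these 5 of 8 were called lower, where 14.1% of all genes were called in either direction. At 22 °C they summed to 16560 to 22010 and 12890 to 16360, and 2 of 8, Adipoq and Cidec, were called lower in the knockouts. There 1.97% of all genes were called in either direction. The part of these cell types in the values of the 32 members was not tested.

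Further genes of the replication machinery were listed apart from the members. Of 45 further replication genes (35 tested), Cdt1, which loads the helicase, was higher in the knockouts at 30 °C, at 2.63 ± 0.793 in the controls and 5.83 ± 1.68 in the knockouts (log2 0.91, SE 0.24, adjusted p = 0.0262). Gmnn, the inhibitor of Cdt1, was lower, at 24.5 ± 0.779 and 13.9 ± 3.61 (-0.80, SE 0.14, adjusted p = 0.00327), and so was the origin subunit Orc3 (-0.43, SE 0.12, adjusted p = 0.0312). These were 3 of 35, where 14.1% of all genes were called, and none was called at 22 °C. Between temperatures 11 were lower and 2 higher at 22 °C in the controls, where 38.8% of all genes were called, led by Pold1, the catalytic subunit of polymerase delta, at 4.71 ± 0.824 against 10.8 ± 1.35 (-1.05, SE 0.14, adjusted p = 3.74e-04). In the knockouts 15 were lower and 6 higher, where 51.1% of all genes were called, with Lig1, the replicative ligase, at -1.13 (SE 0.18) and Orc3 at 0.79 (SE 0.11).

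Of 52 further mitosis genes (29 tested), 4 were higher in the knockouts at 30 °C and none lower, where 8.82% of all genes were called higher. They were the centromere gene Cenpm (0.87, SE 0.17), Anln, of the cleavage furrow (0.81, SE 0.19), the spindle assembly factor Tpx2 (0.59, SE 0.15) and the kinesin Kifc1 (0.65, SE 0.17). Cenpm went from 1.41 ± 0.107 in the controls to 3.45 ± 0.919 in the knockouts (SD, n = 3 each). Tpx2 went from 0.626 ± 0.188 to 1.47 ± 0.467 in the same animals. It would not have passed the filter without the knockouts at 30 °C, the group in which it was highest. At 22 °C none was called between genotypes. Between temperatures 14 were lower and 2 higher at 22 °C in the controls, where 20.6% of all genes were called lower. In the knockouts 17 were lower and 1 higher, where 29.4% of all genes were called lower.

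Genes of cell cycle entry and of its brakes were also listed. Of 21 entry genes (16 tested), 2 were called between genotypes at 30 °C, both higher in the knockouts, where 14.1% of all genes were called. The estimates there were higher for 11 and lower for 5, and none was called at 22 °C. Myc, a growth-driving transcription factor, rose in the knockouts at 30 °C from 12.2 ± 4.43 to 40.5 ± 14.8 (1.64, SE 0.38, adjusted p = 0.0127). E2f1, an activator of replication genes, rose from 1.80 ± 0.266 to 4.68 ± 2.19 (0.95, SE 0.25, adjusted p = 0.0241). Between temperatures 4 entry genes were lower and 2 higher at 22 °C in the controls, where 38.8% of all genes were called. Ccnd1, cyclin D1, was lower at 22 °C in the controls, at 1.73 ± 0.772 against 6.29 ± 0.431 (-1.45, SE 0.18). Of 22 brake genes (21 tested), 1 was called between genotypes at 22 °C, where 1.97% of all genes were called. It was Gadd45a, a stress-induced growth arrest gene, at 2.49 ± 1.78 in the controls and 34.8 ± 21.2 in the knockouts (3.26, SE 0.41, adjusted p = 8.79e-04). At 30 °C it read 4.66 ± 1.57 and 63.2 ± 14.02 (3.51, SE 0.47, adjusted p = 8.77e-04). With Gadd45a, 3 brake genes were called higher and 1 lower in the knockouts at 30 °C, where 14.1% of all genes were called. Cdkn1a, the inhibitor p21, rose there from 30.7 ± 15.1 to 119 ± 17.6 (2.002, SE 0.40), and Btg2, an antiproliferative gene, by 1.87 (SE 0.48). Cdkn2c, an inhibitor of CDK4 and CDK6, fell from 55.4 ± 6.38 to 31.9 ± 1.38 (-0.77, SE 0.18).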

How the data were processed

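RNA sequencing libraries of brown adipose tissue from 14 mice were compared. The deposited table gives FPKM per gene, made by the authors on mm9 per the submitters' processing notes; aligner, counter, annotation and strand setting are not given in the sources used here. Libraries were rescaled on 10049 nuclear genes (factors 0.835 to 1.22), since mitochondrial transcripts differed between genotypes. The 13079 genes with FPKM no lower than 1 in 3 or more of 14 libraries were fitted over the 4 groups with limma 3.58.1 (R 4.3.3) on log2(scaled FPKM + 1), with an intensity trend and Benjamini-Hochberg adjustment, threshold 0.05. Fold changes on this scale understate changes of low genes. Whole fragments were recovered from the FPKM steps (tolerance 0.0001) for 99.8% of 21559 genes and used for voom and depth. The fitting code was tested on simulated data with the same spread set for all genes, so that test does not cover low and variable members. Members and lists were chosen with earlier results of these data known. Named with values in every animal are members called in any comparison whose groups do not overlap and the 3 most abundant of each list; Tyms, Cdk1 and Birc5, and Mki67 and Bub1 at 22 °C, were added after their values were seen. Pathway lists are given by counts, with up to 4 called genes of smallest adjusted p. Tables and figures used Python 3.11.15. Alternatives were other pseudocounts, filters, scalings and fits, leaving out each animal, and leaving out the 2 controls whose identifiers begin with R.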

Additional observations from a re-analysis of the deposited data

Results flagged for a closer look

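In the 2 groups of 4 animals, the 32 members and both scores gave 68 sets of 4 values, which were checked for an animal far from the other 3, and 4 were found, where chance gives about 1 in 20. In the controls at 22 °C, replicate 4 had Mcm5 at 1.37 scaled FPKM (the others 0.555 to 0.687), Mcm6 at 2.06 (1.28 to 1.35) and Cenpf at 0.0829 (0.0198 to 0.0266). This animal is 1 of the 2 controls with an R identifier. In the knockouts at 22 °C, replicate 3 had Cdc20 at 0.697, above 0.542 to 0.547 in the others.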

How the results depend on the processing

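No called member reversed its direction under any alternative tried. Of the 72 alternative fits of the 6 genes called between genotypes at 30 °C, 51 kept the call; Pcna and Mcm5 kept it in all 12 each. That count of 6 became 2 with a pseudocount of 0.1, 20 with FPKM as deposited, 3 with quantile normalization, 14 with equal totals over nuclear genes, 2 with the compared groups alone, 10 without the intensity trend, 13 with sample weights, and 2 with voom and no FPKM filter, which was chosen after seeing the data. The count of 0 at 22 °C became 4 with FPKM as deposited, 1 with equal nuclear totals and 2 with sample weights. The deposited scaling moved the median of all genes by 0.24 at 22 °C and 0.31 at 30 °C. Leaving out 1 animal gave 1 to 12 calls at 30 °C, 0 to 0 at 22 °C, 9 to 14 and 17 to 22 between temperatures in controls and knockouts, and 0 to 1 for the difference of the knockout effects. Without the 2 controls with an R identifier the counts were 0 at 22 °C, 9 at 30 °C, 12 and 21 between temperatures in controls and knockouts, and 0 for the difference. The knockout difference in the replication score was 0.350 at 22 °C and 0.683 at 30 °C with deposited FPKM, and that in the mitosis score 0.530 and 0.824 with a pseudocount of 0.1. Between temperatures a pseudocount of 0.1 gave -0.680 (replication) and -1.10 (mitosis) in controls and -0.973 and -1.39 in knockouts; quantile normalization gave -0.226 for mitosis in controls, and -0.535 (replication) and -0.454 (mitosis) in knockouts. The cause was not tested. No paired analysis was possible because the labels give each animal its own identifier and no number shared between groups.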

Other observations

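At 30 °C, 1 of 3 dendritic cell markers tested (Itgax, log2 2.27, SE 0.46) and 1 of 4 B and plasma cell markers tested (Sdc1, 1.23, SE 0.31) were higher in the knockouts. Over all genes tested 8.82% were called higher there. None of the endothelial, mural, Schwann cell, skeletal muscle, erythroid or T and NK cell markers tested was called. At 22 °C, of these lists none held a called gene. Skeletal muscle markers varied from 69.9 to 12230 scaled FPKM between animals, with no call in any comparison. Ucp1, the uncoupling protein of brown fat, was higher at 22 °C in the controls, at 2114 ± 860 against 806 ± 255 (log2 1.35, SE 0.34).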
